A study of Mus musculus with 18 samples.

Results

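Clustered protocadherins are cell-surface adhesion proteins encoded by neighbouring genes on mouse chromosome 18. They were chosen by symbol: every protein-coding gene of the deposited count table named as an alpha, beta or gamma clustered protocadherin was taken, which gave 57 of the 55450 gene IDs. These were 14 alpha genes (including Pcdhac1 and Pcdhac2, and with 2 gene IDs that share the symbol Pcdha11), 22 beta genes, 18 gamma genes of the A and B subfamilies and the 3 gamma C genes. All lie on the plus strand of chromosome 18 (mm10), the alpha genes between 36930184 and 37187661, the beta genes between 37264938 and 37524479 and the gamma genes between 37661793 and 37841873.

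In the alpha and gamma clusters each gene starts at a variable exon with its own promoter and is spliced to constant exons shared by the whole cluster, so that the proteins differ outside the cell and share their cytoplasmic end. Beta genes have a single coding exon and no constant part. The proteins bind like with like between cells, and in the nervous system, where they are best known, each neuron expresses a small combination of isoforms, chosen at promoters that bind CTCF and cohesin and that are silenced by DNA methylation, while the C-type genes are expressed more widely.

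The libraries were polyA RNA from C2C12, a mouse myoblast line that forms myotubes when serum is lowered. There were 3 lines, each as myoblasts in growth medium and as myotubes on day 3 in medium with horse serum, and each with 3 replicates called A, B and C, so 18 libraries in 6 groups. As control served a pool of sorted cells that had received the empty pX458 plasmid. The overexpressor (clone 2-4) and the knockout (clone 2-7) were each grown from 1 cell after Cas9 deletion in the promoter region of Meg3, a noncoding RNA of the Dlk1-Dio3 cluster, so genotype and clone cannot be told apart. No label says that the replicates were separately derived, so the p-values measure the spread between cultures of the same line, which may be technical.

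Library totals ran from 41544358 to 79140702 counts. Meg3 checked the labels in part: it had 0 counts in every control and knockout library and stood at 133 ± 22.9 CPM (the counts scaled to library size, SD, n = 3) in overexpressor myoblasts and 92.6 ± 13.4 in overexpressor myotubes. It therefore separated the overexpressor but not the knockout from the control, and directions for the knockout rest on its label. The 5 myoblast markers summed to 1669 to 1824 CPM in control, 3427 to 4169 CPM in overexpressor and 4059 to 4620 CPM in knockout myoblasts. Their sums in myotubes were 3717 to 3910, 7279 to 8545 and 9198 to 12130 CPM in the same order. The 7 myotube markers summed to 244 to 372 CPM in control myoblasts and 423 to 699 CPM in overexpressor myoblasts, but to 9170 to 11720 CPM in knockout myoblasts, against 13680 to 14130 CPM in control myotubes. Endothelial, adipocyte and leukocyte markers (4 genes each) summed to at most 0.67, 0.15 and 2.27 CPM in any library.

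The isoforms that these cells expressed were beta and gamma genes, alpha genes were all but absent, and 1 gene, Pcdhgc3, supplied most of the counts. A member was called expressed in a group at 0.5 CPM or more in all 3 libraries, at the floor at 3 counts or fewer in each of them, and low otherwise, where CPM are scaled with TMM factors. The cutoff is not per kb, so a longer gene reaches it at a lower level per kb. Pcdhb11 was expressed in overexpressor myoblasts at 0.171 CPM per kb, while Pcdhga4 was low in control myoblasts at 0.273. The counts of expressed members therefore depend on gene length when genes or classes are compared. By that rule 19 of the 57 members were expressed in control myoblasts, 23 in overexpressor myoblasts, 21 in knockout myoblasts, 25 in control myotubes, 21 in overexpressor myotubes and 19 in knockout myotubes. In the same order the beta genes gave 9, 12, 12, 15, 12 and 12 of these, and the gamma A and B genes 7, 9, 6, 8, 7 and 4. Expressed in all 6 groups were 15 members, namely 9 beta genes (Pcdhb14 to Pcdhb22), Pcdhga1, Pcdhgb1, Pcdhgb2, Pcdhga6, Pcdhgc3 and Pcdhgc5. Another 15 members were expressed in some groups, namely 6 beta genes, 8 gamma A or B genes and Pcdhgc4. No group expressed the other 27, which were all 14 alpha genes, 7 beta genes and 6 gamma A or B genes. With other cutoffs, 32 members were at 0.2 CPM or more in all 3 libraries of control myoblasts, and 16 reached 1 CPM in control myotubes. Each of these is for 1 group, so they do not show whether the order of the groups holds at another cutoff.

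**Figure D1:**
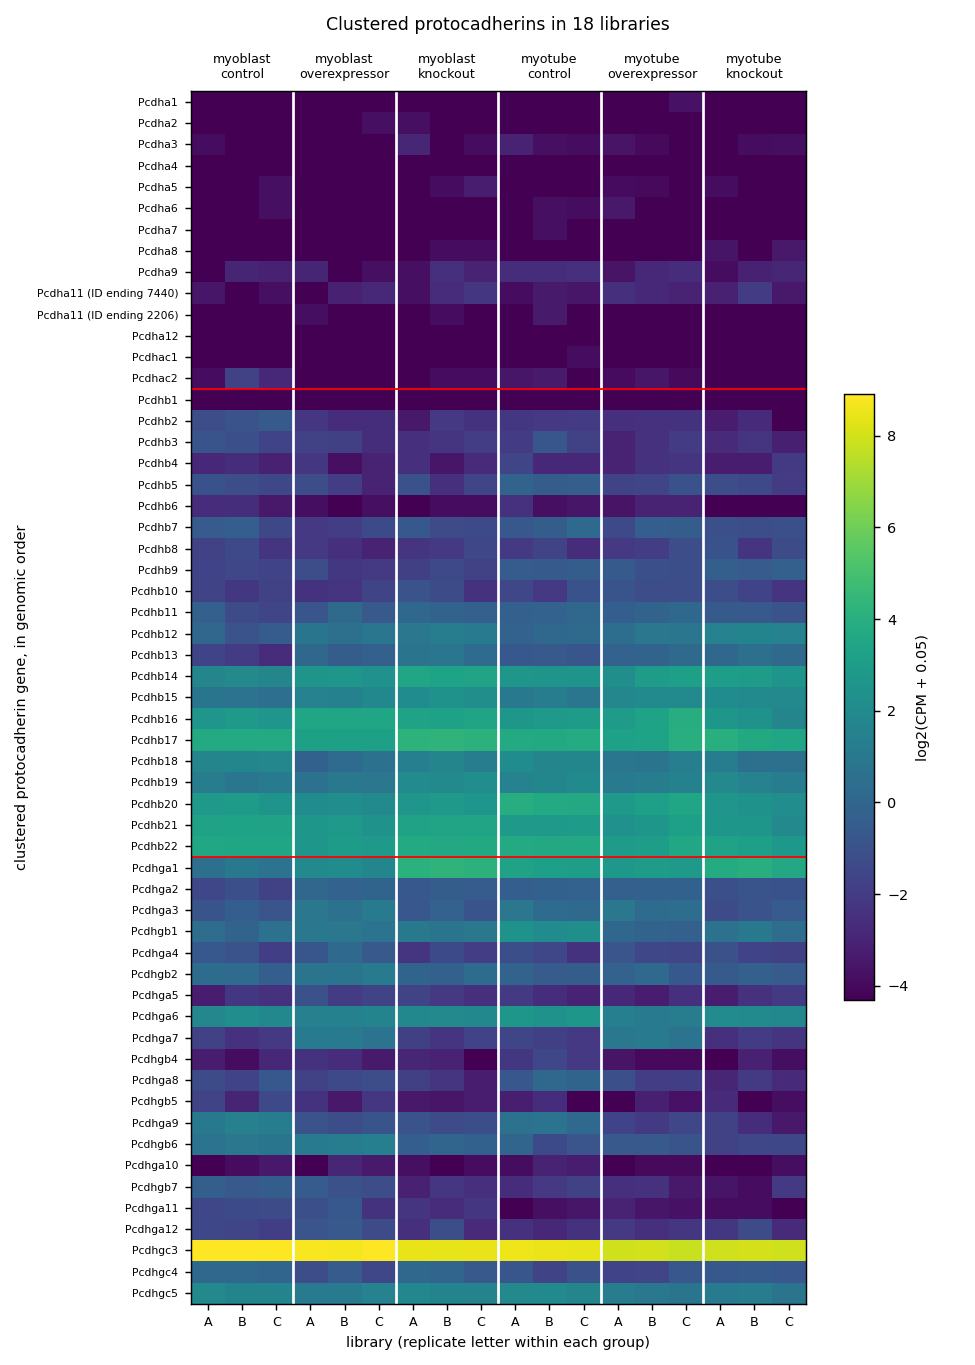
Each row is 1 of the 57 members in genomic order, each column 1 of the 18 libraries, and the colour is log2(CPM + 0.05); red lines separate the alpha, beta and gamma clusters. The alpha rows are near the bottom of the scale in every library, Pcdhgc3 is at the top, and Pcdhb14 to Pcdhb22 are expressed in all 6 groups.

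The alpha genes were not expressed as isoforms at this depth. Summed over all 14, they had between 3 and 19 counts in a library, or 0.10 to 0.27 CPM as group means. The heat map of all members shows them as an empty band at its top. The highest 4 alpha genes by level per kb were Pcdha9, the Pcdha11 ID ENSMUSG00000007440, Pcdhac2 and Pcdha3. Pcdha9 had 0, 4 and 3 counts in control, 4, 0 and 1 in overexpressor, with 1, 7 and 4 in knockout myoblasts, and 6, 5 and 7, 2, 7 and 8, and 1, 4 and 4 counts in the myotubes of the same lines. That Pcdha11 ID had 2, 0 and 1, 0, 3 and 4, and 1, 6 and 9 counts in myoblasts and 1, 2 and 2, 8, 7 and 5, and 4, 12 and 2 counts in myotubes. In CPM, Pcdha9 was at 0.114, 0.114 and 0.126 in control myotubes, 0.030, 0.088 and 0.111 in overexpressor myotubes and at 0.017, 0.067 and 0.084 in those of the knockout. The control libraries stood above the others there only by 0.114 against 0.111 CPM, on 8 counts or fewer a library. The counts themselves overlapped with those of the overexpressor, and the difference was not tested. Pcdhac2, a C-type gene known for axon spacing of serotonergic neurons, had 1, 13 and 4 counts in control myoblasts and 0 to 3 counts in each of the other 15 libraries. Its control myoblast level is carried by replicate B. Pcdha3 had at most 4 counts in any library. The other 10 alpha genes had 3 counts or fewer in every library, Pcdha4 and Pcdha12 had none at all, and no alpha gene passed the filter for testing. Pcdha4 has only 494 exon bases that no other gene shares on the same strand, so its 0 counts say little about its level. Since 0 counts allow up to 3, or 0.0375 to 0.0693 CPM depending on the library (counting error only), a lower level could not have been seen.

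The beta genes are the members whose counts can best be assigned to 1 gene. Between 88.0% and 100% of the 50-base windows of each beta gene's transcripts occur in no other gene's transcripts, against 9.94% to 56.0% for alpha genes and 34.7% to 68.1% for gamma genes, whose constant exons are shared. In the whole table, 763 genes have no exon base of their own on their strand, and 61 of them had any counts (1 over 1000). Another 134 genes have 500 or more own bases on their strand but are wholly overlapped on the opposite strand. Of these, 97 had counts (14 over 1000). Levels per kb were taken over exon that no other gene shares on the same strand. The strand setting of the counting is not given, and some of that exon is overlapped on the opposite strand. Pcdhgc3 has 3380 such bases, 1821 of them free of overlap on either strand, and Pcdhb12 has 3034 and 1107.

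Pcdhgc3, a C-type gamma gene known for its part in dendrite branching, was the most abundant member in every group. It held 67.4% to 85.9% of all member counts, and its mean level ran from 71.4 CPM per kb in overexpressor myotubes to 139.6 CPM per kb in control myoblasts. No other member exceeded 5.6 CPM per kb in any group. In myoblasts Pcdhgc3 stood at 467, 479 and 469.7 CPM in the control, 442, 430.5 and 464 in the overexpressor, with 356, 346 and 358 in the knockout (replicates A, B and C in that order). In myotubes, Pcdhgc3 was at 379, 369.8 and 345 CPM in the control, 248, 257 and 219 in the overexpressor, with 247, 269 and 248 in the knockout. Every knockout myoblast library lay below every control and overexpressor myoblast library, and both clones lay below the control in myotubes without overlap. Against the control, tested with edgeR's quasi-likelihood test and Benjamini-Hochberg adjustment over 17912 genes (as are all adjusted p-values here), the log2 fold change was -0.42 (SE 0.06, adjusted p = 1.66e-05) in knockout myoblasts, -0.60 (SE 0.06, adjusted p = 1.75e-07) in overexpressor myotubes and -0.52 (SE 0.06, adjusted p = 8.44e-07) in knockout myotubes. In overexpressor myoblasts it was -0.08 (SE 0.06, adjusted p = 0.317) and did not pass the threshold of 0.05. From myoblasts to myotubes Pcdhgc3 fell in all 3 lines, by 0.37 in the control, by 0.88 in the overexpressor and by 0.47 in the knockout on the log2 scale, and the overexpressor's log2 change minus the control's was -0.51 (SE 0.09, adjusted p = 0.000125). In bulk RNA, fewer expressing cells and less RNA per cell cannot be told apart.

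The other C-type gamma genes were minor. In myoblasts, Pcdhgc5 was at 3.67, 3.04 and 3.03 CPM in the control, 2.14, 2.13 and 2.91 in the overexpressor, with 3.57, 3.04 and 2.92 in the knockout. In myotubes, Pcdhgc5 was at 3.75, 4.00 and 3.21 CPM in the control, 2.35, 1.94 and 1.71 in the overexpressor, with 2.17, 2.34 and 1.63 in the knockout. Both clones lay below the control in myotubes, with log2 fold changes of -0.87 (adjusted p = 0.000281) and -0.83 (adjusted p = 0.00042), while neither difference in myoblasts passed. Pcdhgc4 is needed for the survival of many neurons. In myoblasts, Pcdhgc4 was at 1.07, 1.00 and 0.958 CPM in the control, 0.379, 0.647 and 0.300 in the overexpressor, with 1.03, 0.947 and 0.605 in the knockout. In myotubes, Pcdhgc4 was at 0.530, 0.275 and 0.433 CPM in the control, 0.267, 0.288 and 0.542 in the overexpressor, with 0.581, 0.619 and 0.544 in the knockout. Pcdhgc4 was lower in overexpressor than in control myoblasts (log2 fold change -1.18, SE 0.33, adjusted p = 0.00668), without overlap, and fell in the control on differentiation (log2 fold change -1.27, adjusted p = 0.00225).

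Most of the beta signal came from Pcdhb12 to Pcdhb22. Pcdhb1 to Pcdhb11 together gave 2.21 to 4.34 CPM as group means, whereas Pcdhb12 to Pcdhb22, also 11 genes, gave 51.5 to 84.0 CPM. Per kb, the highest of the first 11 reached 0.24 CPM per kb and the highest of the last 11 reached 4.02 CPM per kb. Pcdhb1 had 0 counts in all 18 libraries. Pcdhb4, Pcdhb6 and Pcdhb8 never exceeded 0.461 CPM in a library. The order of the 22 genes by CPM per kb was much alike across groups, with Spearman's rho between 0.86 and 0.98 over the 15 pairs of groups. That correlation is across genes (n = 22), which share the libraries and are not replicates.

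**Figure D2:**
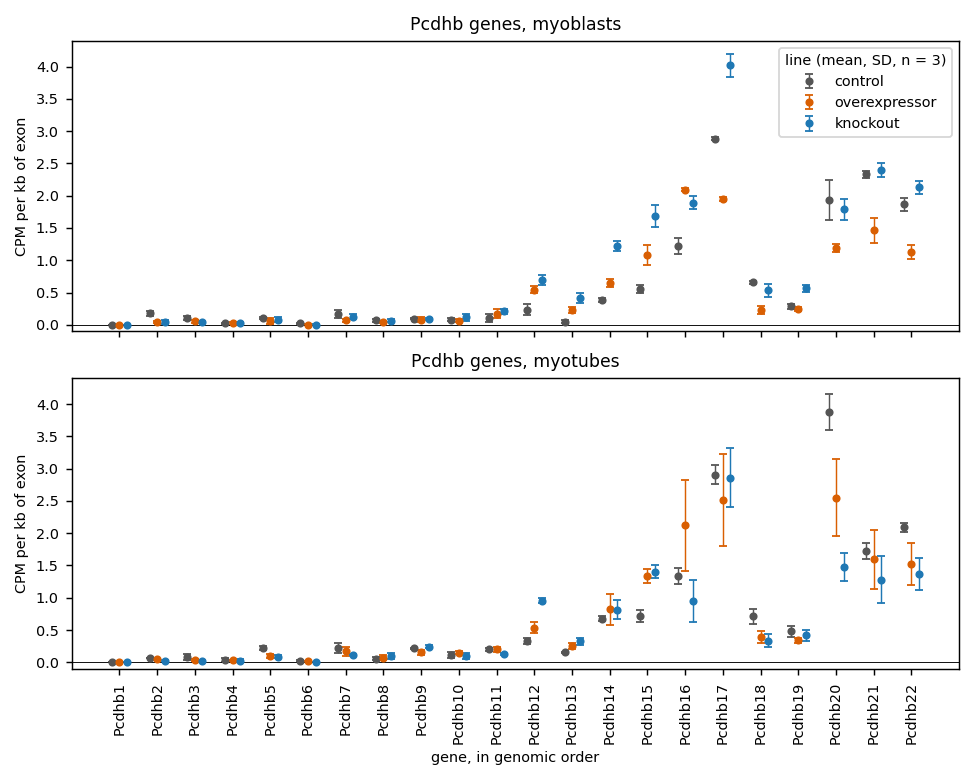
The plot gives the mean and SD (n = 3) of each beta gene's level in CPM per kb, in genomic order, for the 3 lines as myoblasts (top) and myotubes (bottom). Pcdhb1 to Pcdhb11 stay at or below 0.24 CPM per kb in every group, and Pcdhb17 in knockout myoblasts, at 4.02 CPM per kb, is the highest point.

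The leading beta gene differed between groups. Per kb, Pcdhb17 was first in control myoblasts (21.6% of the summed beta level), knockout myoblasts (22.2%) and knockout myotubes (21.9%), Pcdhb16 in overexpressor myoblasts (18.3%) and Pcdhb20 in control and overexpressor myotubes (23.9% and 17.1%). The plot of beta levels by gene shows that these leads are narrow in overexpressor myotubes, where the SDs of Pcdhb16, Pcdhb17 and Pcdhb20 overlap. Summed over the 22 genes, the beta level was 62.5 ± 2.98 CPM in control, 53.7 ± 1.37 CPM in overexpressor and 86.8 ± 1.0 CPM in knockout myoblasts, with no overlap between lines. In myotubes it was 75.3 ± 1.67 CPM in the control, and 54.9, 65.6 and 87.4 in replicates A, B and C of the overexpressor and 69.2, 62.3 and 48.8 in those of the knockout. The overexpressor libraries thus spanned the control, and the 2 clones overlapped. Beside these sums, the 11 genes of the cohesin and CTCF list summed to 633, 674 and 1034 CPM in overexpressor myotubes A, B and C. In knockout myotubes they summed to 621, 526 and 455 CPM. In control myotubes they gave 933, 802 and 1055 CPM beside beta sums of 76.1, 73.4 and 76.4 CPM. Overexpressor myoblasts had 1098, 1399 and 1071 CPM beside 53.0, 55.3 and 52.8 CPM. Control myoblasts had 1342, 1232 and 1306 CPM beside 63.8, 64.7 and 59.1 CPM, and knockout myoblasts 1076, 1054 and 1085 CPM beside 86.6, 87.9 and 85.9 CPM. The part of these differences between libraries in the beta sums was not tested.

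Pcdhb12, Pcdhb13 and Pcdhb15 were higher in both clones than in the control, in myoblasts and in myotubes. In myoblasts, Pcdhb13 was at 0.262, 0.192 and 0.111 CPM in the control, 1.06, 0.690 and 0.786 in the overexpressor, with 1.66, 1.77 and 1.19 in the knockout. In myotubes, Pcdhb13 was at 0.568, 0.595 and 0.541 CPM in the control, 0.832, 0.863 and 1.14 in the overexpressor, with 1.08, 1.42 and 1.13 in the knockout. The control libraries lay below those of both clones at each stage. Against the control the log2 fold change of Pcdhb13 was 2.13 (SE 0.30, adjusted p = 1.54e-05) in overexpressor and 2.99 (SE 0.29, adjusted p = 7.61e-08) in knockout myoblasts, and 0.73 (adjusted p = 0.017) and 1.09 (adjusted p = 0.00082) in the myotubes. In myoblasts, Pcdhb12 was at 0.992, 0.481 and 0.668 CPM in the control, 1.74, 1.45 and 1.78 in the overexpressor, with 1.85, 2.33 and 2.17 in the knockout. In myotubes, Pcdhb12 was at 0.852, 1.03 and 1.14 CPM in the control, 1.34, 1.83 and 1.75 in the overexpressor, with 2.82, 3.03 and 2.82 in the knockout. The knockout was highest at both stages, and the log2 fold changes were 1.21 (adjusted p = 0.000249) and 1.56 (adjusted p = 7.75e-06) in myoblasts and 0.70 (adjusted p = 0.00763) and 1.52 (adjusted p = 3.86e-06) in myotubes. In myoblasts, Pcdhb15 was at 1.72, 1.60 and 1.38 CPM in the control, 2.87, 2.72 and 3.54 in the overexpressor, with 4.30, 5.24 and 4.64 in the knockout. In myotubes, Pcdhb15 was at 1.99, 2.29 and 1.77 CPM in the control, 3.40, 3.98 and 3.83 in the overexpressor, with 4.20, 3.97 and 3.64 in the knockout. Here too both clones lay above the control without overlap, by 0.95 (adjusted p = 4.61e-05) and 1.59 (adjusted p = 4.41e-08) in myoblasts and 0.90 (adjusted p = 3.00e-05) and 0.97 (adjusted p = 1.08e-05) in myotubes. These comparisons share the control libraries.

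Pcdhb14, Pcdhb16, Pcdhb17 and Pcdhb19 lay above the control in knockout myoblasts by the test and did not pass against the control in knockout myotubes. In myoblasts, Pcdhb14 was at 3.22, 3.67 and 3.21 CPM in the control, 5.73, 6.06 and 5.08 in the overexpressor, with 11.3, 10.1 and 10.4 in the knockout, in steps without overlap, and the knockout exceeded the control by 1.65 (SE 0.18, adjusted p = 3.75e-07). In myotubes, Pcdhb14 was at 6.25, 5.63 and 5.74 CPM in the control, 4.83, 7.69 and 8.83 in the overexpressor, with 8.04, 7.68 and 5.62 in the knockout, and the lines overlapped. In myoblasts, Pcdhb16 was at 6.11, 7.13 and 5.88 CPM in the control, 10.8, 10.9 and 11 in the overexpressor, with 9.90, 9.34 and 10.4 in the knockout, where both clones lay above the control. In myotubes, Pcdhb16 was at 6.38, 6.96 and 7.65 CPM in the control, 8.03, 10.1 and 15.1 in the overexpressor, with 6.45, 5.29 and 3.14 in the knockout, with overexpressor C the highest and knockout C the lowest of the 9 libraries. Both clones passed in myoblasts (log2 fold changes 0.78 with adjusted p = 0.00863 and 0.63 with adjusted p = 0.022), and the overexpressor also in myotubes (log2 fold change 0.66, adjusted p = 0.0145). In myoblasts, Pcdhb17 was at 13.4, 13.5 and 13.4 CPM in the control, 9.26, 8.99 and 8.99 in the overexpressor, with 18.4, 19.6 and 18.1 in the knockout. The overexpressor was lower (log2 fold change -0.56, adjusted p = 0.00459) and the knockout higher (log2 fold change 0.48, adjusted p = 0.00926), each apart from the control. In myotubes Pcdhb17 was at 13.5, 12.8 and 14.3 CPM in the control, 9.49, 10.1 and 15.6 in the overexpressor, with 15.5, 13.3 and 11.2 in the knockout, and no difference between lines passed. In myoblasts, Pcdhb19 was at 2.36, 1.81 and 2.05 CPM in the control, 1.48, 1.94 and 1.82 in the overexpressor, with 4.04, 3.66 and 4.43 in the knockout. In myotubes, Pcdhb19 was at 2.90, 3.30 and 4.04 CPM in the control, 2.21, 2.31 and 2.76 in the overexpressor, with 3.65, 2.83 and 2.43 in the knockout. The knockout stood above the control in myoblasts (log2 fold change 0.96, adjusted p = 0.000158), and the overexpressor below it in myotubes (log2 fold change -0.49, adjusted p = 0.0217).

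Pcdhb18, Pcdhb20, Pcdhb21 and Pcdhb22 were lower in the overexpressor than in the control as myoblasts. In myoblasts, Pcdhb18 was at 3.22, 3.27 and 3.48 CPM in the control, 0.818, 1.17 and 1.46 in the overexpressor, with 2.54, 3.22 and 2.28 in the knockout. In myotubes, Pcdhb18 was at 4.26, 3.25 and 3.27 CPM in the control, 1.80, 1.64 and 2.49 in the overexpressor, with 2.29, 1.42 and 1.40 in the knockout. Every overexpressor library lay below every control library at both stages (log2 fold changes -1.54 with SE 0.24 and adjusted p = 4.08e-05 and -0.87 with adjusted p = 0.00251), and knockout myotubes were below the control as well (log2 fold change -1.07, adjusted p = 0.000422). In myoblasts, Pcdhb20 was at 7.00, 7.92 and 5.75 CPM in the control, 4.29, 4.44 and 4.02 in the overexpressor, with 5.92, 6.99 and 6.16 in the knockout. In myotubes, Pcdhb20 was at 14.8, 13.8 and 12.8 CPM in the control, 7.19, 8.71 and 11.4 in the overexpressor, with 5.89, 5.52 and 4.41 in the knockout. The control myotubes stood above both clones without overlap, with -0.60 (adjusted p = 0.00232) for the overexpressor and -1.38 (SE 0.16, adjusted p = 3.96e-07) for the knockout. In myoblasts, Pcdhb21 was at 9.74, 10.2 and 9.80 CPM in the control, 6.27, 6.99 and 5.38 in the overexpressor, with 9.64, 10.5 and 10.4 in the knockout. In myotubes, Pcdhb21 was at 6.99, 7.00 and 7.92 CPM in the control, 5.03, 6.40 and 8.90 in the overexpressor, with 6.42, 6.24 and 3.68 in the knockout. The overexpressor passed as lower in myoblasts (log2 fold change -0.67, adjusted p = 0.00879), without overlap. In myoblasts, Pcdhb22 was at 12.1, 11.5 and 10.8 CPM in the control, 6.25, 7.55 and 7.00 in the overexpressor, with 13.7, 12.4 and 13.2 in the knockout. In myotubes, Pcdhb22 was at 13.4, 12.6 and 12.6 CPM in the control, 7.81, 8.62 and 11.7 in the overexpressor, with 9.68, 8.91 and 6.69 in the knockout. It passed for the overexpressor at both stages (log2 fold changes -0.73 with adjusted p = 0.000446 and -0.46 with adjusted p = 0.00911) and for the knockout in myotubes (log2 fold change -0.61, adjusted p = 0.000956).

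Some low genes of the stretch from Pcdhb2 to Pcdhb11 also changed. In myoblasts, Pcdhb2 was at 0.393, 0.481 and 0.624 CPM in the control, 0.160, 0.108 and 0.116 in the overexpressor, with 0.043, 0.182 and 0.142 in the knockout, where the control lay above both clones (log2 fold changes -1.93 with adjusted p = 0.00269 and -1.96 with adjusted p = 0.00144). In myotubes, Pcdhb2 was at 0.170, 0.183 and 0.198 CPM in the control, 0.119, 0.138 and 0.139 in the overexpressor, with 0.051, 0.10 and 0 in the knockout. The knockout passed there (log2 fold change -1.74, adjusted p = 0.015), but not without knockout replicate C, which had 0 counts (log2 fold change -1.25, adjusted p = 0.0529), and the value was -2.63 without knockout replicate B. In myoblasts, Pcdhb3 was at 0.487, 0.423 and 0.267 CPM in the control, 0.260, 0.237 and 0.116 in the overexpressor, with 0.129, 0.146 and 0.214 in the knockout. In myotubes, Pcdhb3 was at 0.208, 0.526 and 0.253 CPM in the control, 0.074, 0.138 and 0.208 in the overexpressor, with 0.102, 0.151 and 0.063 in the knockout. It passed as lower in knockout myoblasts (log2 fold change -1.26, adjusted p = 0.0281) and in the myotubes of both clones (log2 fold changes -1.18 with adjusted p = 0.0345 and -1.56 with adjusted p = 0.00996). In myotubes, control A and overexpressor C both rounded to 0.208 CPM, so those lines barely separated. Each of these calls was lost when some single library was left out. Without control myotube B the log2 fold changes were -0.70 for the overexpressor and -1.09 for the knockout. In myoblasts the Pcdhb3 call was lost without control A, control B, knockout A or knockout B, and in overexpressor myotubes also without overexpressor A or B and with DESeq2 (-1.11, adjusted p = 0.095). In myoblasts, Pcdhb5 was at 0.449, 0.385 and 0.312 CPM in the control, 0.379, 0.216 and 0.069 in the overexpressor, with 0.452, 0.127 and 0.285 in the knockout. In myotubes, Pcdhb5 was at 0.890, 0.710 and 0.758 CPM in the control, 0.282, 0.288 and 0.458 in the overexpressor, with 0.393, 0.335 and 0.209 in the knockout. The control myotubes lay above both clones without overlap (log2 fold changes -1.20 with adjusted p = 0.015 in the overexpressor and -1.31 with adjusted p = 0.00915 in the knockout). The overexpressor call was lost without control A, overexpressor A or overexpressor B, where the log2 fold changes were -1.09, -1.08 and -1.08. In myoblasts, Pcdhb7 was at 0.655, 0.731 and 0.312 CPM in the control, 0.180, 0.216 and 0.347 in the overexpressor, with 0.581, 0.364 and 0.338 in the knockout. In myotubes, Pcdhb7 was at 0.549, 0.687 and 1.10 CPM in the control, 0.327, 0.738 and 0.708 in the overexpressor, with 0.427, 0.402 and 0.418 in the knockout. The overexpressor passed in myoblasts with overlapping libraries (log2 fold change -1.22, adjusted p = 0.0297), and the knockout in myotubes without overlap (log2 fold change -0.91, adjusted p = 0.0399). In myoblasts, Pcdhb9 was at 0.262, 0.308 and 0.267 CPM in the control, 0.379, 0.173 and 0.185 in the overexpressor, with 0.237, 0.328 and 0.249 in the knockout, where no difference between lines passed. In myotubes, Pcdhb9 was at 0.663, 0.618 and 0.685 CPM in the control, 0.609, 0.425 and 0.403 in the overexpressor, with 0.751, 0.653 and 0.795 in the knockout, and it rose on differentiation in all 3 lines (log2 fold changes 1.23 with adjusted p = 0.00128, 0.93 with adjusted p = 0.0113 and 1.42 with adjusted p = 0.00031). In myoblasts, Pcdhb10 was at 0.281, 0.173 and 0.245 CPM in the control, 0.140, 0.151 and 0.277 in the overexpressor, with 0.473, 0.364 and 0.142 in the knockout. In myotubes, Pcdhb10 was at 0.303, 0.183 and 0.451 CPM in the control, 0.490, 0.388 and 0.389 in the overexpressor, with 0.393, 0.268 and 0.146 in the knockout. In myoblasts, Pcdhb11 was at 0.786, 0.365 and 0.290 CPM in the control, 0.539, 1.12 and 0.601 in the overexpressor, with 1.08, 0.892 and 0.783 in the knockout. In myotubes, Pcdhb11 was at 0.796, 0.847 and 1.01 CPM in the control, 0.713, 0.876 and 1.07 in the overexpressor, with 0.632, 0.603 and 0.481 in the knockout. Knockout myoblasts passed as higher than the control (log2 fold change 0.91, adjusted p = 0.0304) but overlapped it.

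Among the gamma A and B genes the make-up itself differed between lines and, in the control, as much between stages. Per kb, Pcdhga1 held 59.0% of the summed gamma A and B level in knockout myoblasts and 56.9% in knockout myotubes, against 15.3% in overexpressor myoblasts, 29.0% in control myotubes and 36.3% in overexpressor myotubes. In control myoblasts Pcdhga6 was first with 25.9%, and Pcdhga1 held 9.19%. The order of the 18 genes was less alike between groups than that of the beta genes, with Spearman's rho from 0.63 (control myoblasts and overexpressor myotubes) to 0.93 (the 2 knockout groups). Between the control's 2 stages it was 0.75, beside 0.76 and 0.77 between control myoblasts and those of the overexpressor and the knockout. The 2 clones were at 0.89 in myoblasts and 0.91 in myotubes. The summed level was 15.4 ± 0.96 CPM in control, 20.6 ± 0.45 CPM in overexpressor, with 28.5 ± 1.22 CPM in knockout myoblasts, and 26.8 ± 2.20, 17.3 ± 1.01 and 22.8 ± 2.24 CPM in the myotubes.

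**Figure D3:**
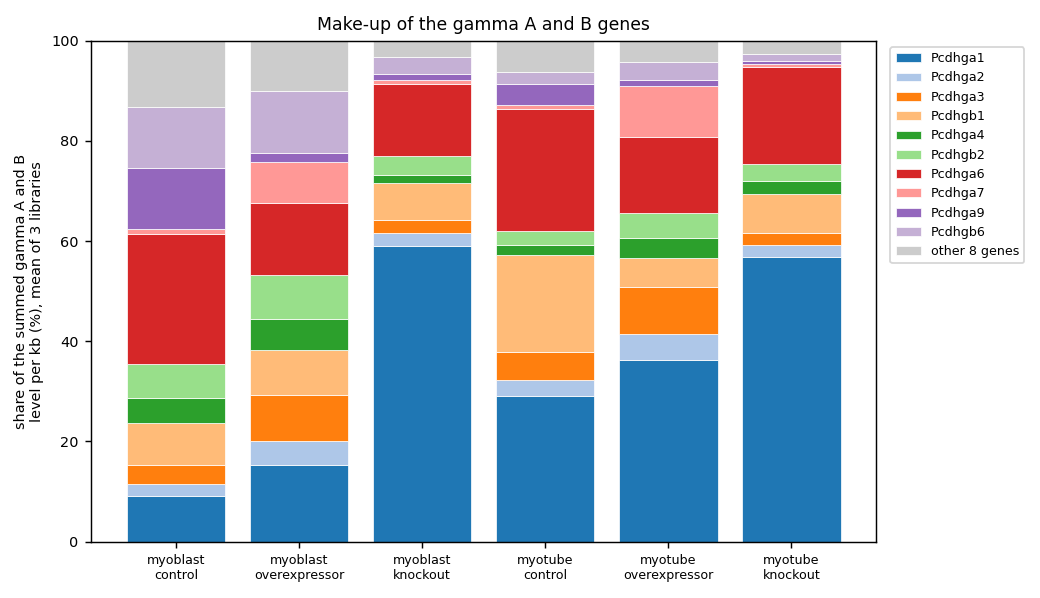
Each bar divides the summed level per kb of the 18 gamma A and B genes in 1 group among the 10 genes that hold 5% or more in some group and the other 8 (grey), as means of 3 libraries. Pcdhga1 (dark blue) fills 59.0% and 56.9% of the knockout bars, and Pcdhga7 (pink) reaches 10.1% in overexpressor myotubes.

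Pcdhga7 was high in the overexpressor at both stages. In myoblasts, Pcdhga7 was at 0.243, 0.135 and 0.178 CPM in the control, 2.16, 2.03 and 1.59 in the overexpressor, with 0.237, 0.146 and 0.267 in the knockout. In myotubes, Pcdhga7 was at 0.284, 0.229 and 0.180 CPM in the control, 1.93, 2.11 and 1.58 in the overexpressor, with 0.120, 0.201 and 0.146 in the knockout. Each overexpressor library exceeded all 12 control and knockout libraries, none of which exceeded 0.284 CPM. The log2 fold change against the control was 3.36 (SE 0.28, adjusted p = 1.48e-08) in myoblasts and 3.01 (SE 0.26, adjusted p = 1.66e-08) in myotubes. Against the knockout it was 3.15 (adjusted p = 1.38e-08) and 3.57 (adjusted p = 8.38e-09).

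Pcdhga9 was high in the control at both stages. In myoblasts, Pcdhga9 was at 2.02, 2.69 and 2.38 CPM in the control, 0.479, 0.388 and 0.485 in the overexpressor, with 0.473, 0.364 and 0.409 in the knockout. In myotubes, Pcdhga9 was at 1.48, 1.58 and 1.12 CPM in the control, 0.267, 0.188 and 0.306 in the overexpressor, with 0.256, 0.117 and 0.042 in the knockout. All 6 control libraries lay above all 12 libraries of the clones, whose highest value was 0.485 CPM. Both clones were lower in myoblasts (log2 fold changes -2.38 with SE 0.29 and adjusted p = 2.39e-06 and -2.51 with SE 0.29 and adjusted p = 7.88e-07) and in myotubes (log2 fold changes -2.45 with adjusted p = 1.48e-06 and -3.26 with adjusted p = 1.64e-07). The knockout myotube value rests on 15, 7 and 2 counts. The difference between the 2 clones did not pass at either stage.

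Pcdhga1, the first gene of the gamma cluster, was the gamma A or B gene of highest level per kb in the knockout. In myoblasts, Pcdhga1 was at 1.40, 2.00 and 1.60 CPM in the control, 3.93, 4.05 and 3.26 in the overexpressor, with 17.3, 19.3 and 18 in the knockout. In myotubes, Pcdhga1 was at 9.62, 8.95 and 8.13 CPM in the control, 6.65, 7.55 and 6.95 in the overexpressor, with 14.3, 15.7 and 12.6 in the knockout. The 3 lines did not overlap in myoblasts, and at both stages the knockout was highest. Against the control the log2 fold change was 3.44 (SE 0.14, adjusted p = 4.98e-13) in knockout and 1.17 (SE 0.14, adjusted p = 1.77e-06) in overexpressor myoblasts. In myotubes the knockout stayed above the control (log2 fold change 0.67, adjusted p = 7.75e-05), while the overexpressor was below it (log2 fold change -0.34, adjusted p = 0.0235).

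Pcdhgb1 was highest in control myotubes. In myoblasts, Pcdhgb1 was at 1.27, 0.884 and 1.47 CPM in the control, 1.92, 1.88 and 1.57 in the overexpressor, with 1.98, 1.66 and 1.94 in the knockout. In myotubes, Pcdhgb1 was at 5.57, 4.19 and 4.73 CPM in the control, 1.05, 0.888 and 0.778 in the overexpressor, with 1.49, 1.99 and 1.27 in the knockout. Both clones passed as higher than the control in myoblasts (log2 fold changes 0.57 with adjusted p = 0.0373 and 0.62 with adjusted p = 0.0172) and as lower in myotubes (log2 fold changes -2.41 with SE 0.20 and adjusted p = 8.21e-09 and -1.60 with SE 0.19 and adjusted p = 9.37e-07), where every control library lay above every library of the clones.

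**Figure D4:**
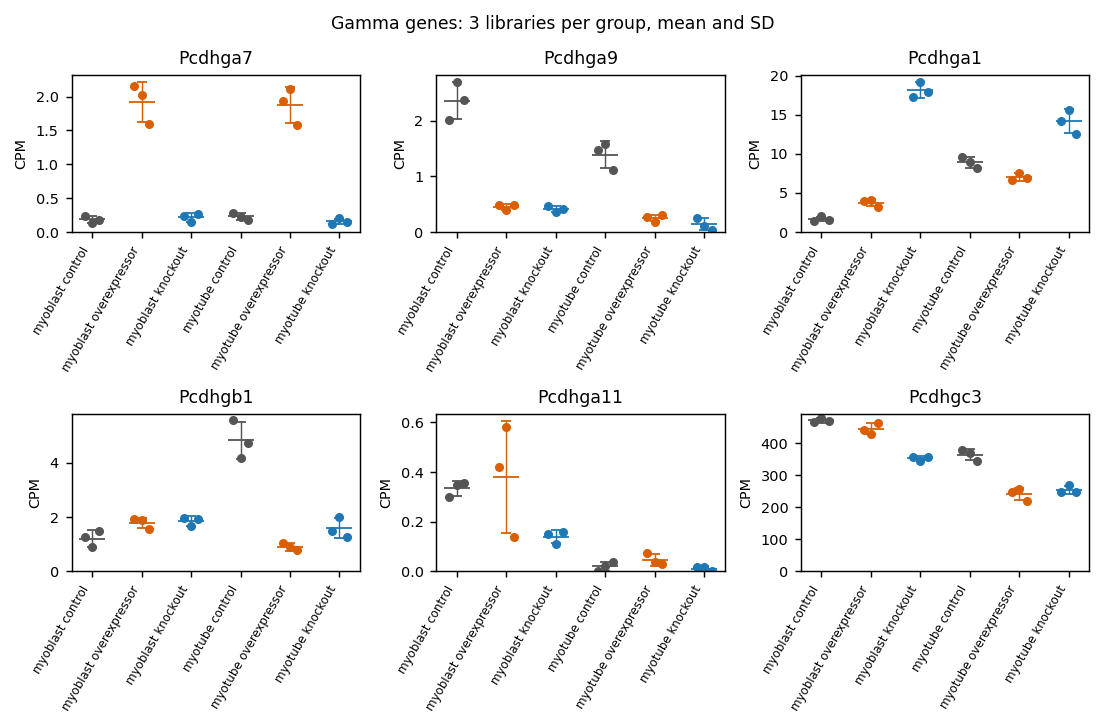
Points are single libraries of 6 gamma genes in CPM, by group, with the mean and SD (n = 3); each panel has its own linear axis from 0. Pcdhga7 is above 1.5 CPM in the overexpressor and below 0.3 CPM elsewhere, Pcdhga9 is high in the control, Pcdhga1 is highest in the knockout, Pcdhgb1 is highest in control myotubes, Pcdhga11 is near 0 in all myotubes, and Pcdhgc3 is lower in myotubes of every line.

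Pcdhga2, Pcdhga3 and Pcdhga6 also differed between lines. In myoblasts, Pcdhga2 was at 0.300, 0.423 and 0.245 CPM in the control, 0.998, 0.841 and 0.901 in the overexpressor, with 0.581, 0.710 and 0.658 in the knockout, with both clones above the control (log2 fold changes 1.49 with adjusted p = 2.57e-05 and 1.00 with adjusted p = 0.00111). In myotubes, Pcdhga2 was at 0.720, 0.824 and 0.848 CPM in the control, 0.787, 0.813 and 0.806 in the overexpressor, with 0.427, 0.485 and 0.460 in the knockout, with the knockout below the control (log2 fold change -0.80, adjusted p = 0.00279). In myoblasts, Pcdhga3 was at 0.487, 0.711 and 0.512 CPM in the control, 1.82, 1.47 and 2.08 in the overexpressor, with 0.559, 0.838 and 0.498 in the knockout, where the overexpressor stood apart (log2 fold change 1.64, adjusted p = 0.000137). In myotubes, Pcdhga3 was at 1.86, 1.19 and 1.12 CPM in the control, 1.87, 1.19 and 1.35 in the overexpressor, with 0.359, 0.469 and 0.648 in the knockout, where the knockout stood apart and lower (log2 fold change -1.51, adjusted p = 0.000181). The overexpressor exceeded the knockout at both stages, by 1.49 (adjusted p = 0.000194) and 1.59 (adjusted p = 0.000136). In myoblasts, Pcdhga6 was at 3.41, 4.36 and 3.59 CPM in the control, 2.63, 2.72 and 3.07 in the overexpressor, with 3.53, 3.64 and 3.52 in the knockout, with the overexpressor lowest (log2 fold change -0.43, adjusted p = 0.0104 against the control). In myotubes, Pcdhga6 was at 6.37, 5.36 and 6.33 CPM in the control, 2.55, 2.25 and 2.33 in the overexpressor, with 4.10, 4.00 and 3.56 in the knockout, in steps without overlap, and both clones were lower (log2 fold changes -1.34 with SE 0.12 and adjusted p = 3.24e-08 and -0.63 with adjusted p = 0.000174).

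Pcdhga8, Pcdhgb6 and Pcdhgb7 passed as lower in knockout than in control myoblasts. In myoblasts, Pcdhga8 was at 0.375, 0.269 and 0.579 CPM in the control, 0.260, 0.324 and 0.393 in the overexpressor, with 0.237, 0.146 and 0.053 in the knockout. In myotubes, Pcdhga8 was at 0.549, 1.08 and 0.920 CPM in the control, 0.416, 0.213 and 0.222 in the overexpressor, with 0.085, 0.184 and 0.105 in the knockout. The knockout passed as lower at both stages (log2 fold changes -1.50 with adjusted p = 0.015 and -2.72 with adjusted p = 4.45e-05), though in myoblasts not without control C or knockout C (-1.18 and -1.09, adjusted p = 0.0804 and 0.0814). Overexpressor myotubes passed as well (log2 fold change -1.58, adjusted p = 0.00226). In myoblasts, Pcdhgb6 was at 1.61, 1.85 and 1.72 CPM in the control, 2.18, 2.37 and 2.56 in the overexpressor, with 0.731, 0.929 and 0.801 in the knockout, with the knockout lowest (log2 fold change -1.07, adjusted p = 0.000966). In myotubes, Pcdhgb6 was at 0.928, 0.343 and 0.505 CPM in the control, 0.594, 0.600 and 0.486 in the overexpressor, with 0.256, 0.301 and 0.314 in the knockout, and the knockout call (log2 fold change -1.04, adjusted p = 0.00459) was lost without control A (-0.57, adjusted p = 0.0806). In myoblasts, Pcdhgb7 was at 0.749, 0.596 and 0.691 CPM in the control, 0.659, 0.431 and 0.393 in the overexpressor, with 0.065, 0.164 and 0.125 in the knockout, where the knockout lay below both other lines (log2 fold change -2.48, SE 0.51, adjusted p = 0.00047 against the control). In myotubes, Pcdhgb7 was at 0.114, 0.183 and 0.253 CPM in the control, 0.119, 0.138 and 0.042 in the overexpressor, with 0.034, 0.017 and 0.188 in the knockout, and no difference between lines passed. In myoblasts, Pcdhga12 was at 0.318, 0.288 and 0.223 CPM in the control, 0.519, 0.604 and 0.370 in the overexpressor, with 0.129, 0.401 and 0.107 in the knockout. In myotubes, Pcdhga12 was at 0.133, 0.092 and 0.144 CPM in the control, 0.178, 0.125 and 0.167 in the overexpressor, with 0.171, 0.368 and 0.105 in the knockout.

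In myoblasts, Pcdhga4 was at 0.580, 0.481 and 0.223 CPM in the control, 0.539, 1.08 and 0.601 in the overexpressor, with 0.151, 0.346 and 0.214 in the knockout. In myotubes, Pcdhga4 was at 0.398, 0.298 and 0.144 CPM in the control, 0.520, 0.300 and 0.292 in the overexpressor, with 0.444, 0.268 and 0.230 in the knockout. In myoblasts the overexpressor was above the knockout (log2 fold change 1.62, adjusted p = 0.00536). In myoblasts, Pcdhgb2 was at 1.22, 1.19 and 0.735 CPM in the control, 1.66, 1.68 and 2.15 in the overexpressor, with 0.904, 0.801 and 1.23 in the knockout. In myotubes, Pcdhgb2 was at 0.871, 0.641 and 0.685 CPM in the control, 0.846, 1.11 and 0.583 in the overexpressor, with 0.632, 0.770 and 0.648 in the knockout. In myoblasts the overexpressor was above the control (log2 fold change 0.79, adjusted p = 0.0162). In myoblasts, Pcdhga5 was at 0.056, 0.173 and 0.134 CPM in the control, 0.439, 0.194 and 0.277 in the overexpressor, with 0.280, 0.182 and 0.125 in the knockout. In myotubes, Pcdhga5 was at 0.189, 0.114 and 0.072 CPM in the control, 0.089, 0.050 and 0.125 in the overexpressor, with 0.051, 0.134 and 0.188 in the knockout. Another 3 genes, Pcdhgb4, Pcdhgb5 and Pcdhga10, did not pass the filter. Pcdhgb4 had 9, 13 and 10 counts in control myotubes and 2, 1 and 1 in overexpressor myotubes. Its control mean was 5.24 times the CPM of 3 counts in the overexpressor libraries, a ratio that leaves out counting error and the spread between libraries. Pcdhgb5 had 15, 4 and 15 counts in control and 2, 2 and 3 in knockout myoblasts. Its control mean was 4.02 times the CPM of 3 counts in the knockout libraries, while control B alone was near that floor. Neither difference was tested. Pcdhga10 had at most 4 counts in any library. Pcdhgb8, annotated as a polymorphic pseudogene and so no member, was at 0.30 ± 0.10 CPM in control, 0.65 ± 0.14 CPM in overexpressor, with 0.11 ± 0.02 CPM in knockout myoblasts.

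Members differed from the control in both directions in the myoblasts of both clones. In myoblasts, 11 of the 37 members tested were higher and 10 lower in the overexpressor than in the control, beside 20.7% of all 17912 genes tested that were higher and 19.7% that were lower (40.4% either way). In the knockout, 11 members were higher and 8 lower than in the control, beside 26.4% and 26.6% of all genes (53% either way). Of the beta genes, 19 were tested, and 5 were higher and 7 lower in the overexpressor, 8 higher and 2 lower in the knockout. Of the 15 gamma A and B genes tested, 6 were higher and 2 lower in the overexpressor, and 3 were higher and 5 lower in the knockout, where the total of 8 became 5 without knockout replicate C. The tested members had a median log2 fold change of -0.17 (overexpressor) and -0.04 (knockout), beside 0.02 for all genes in each. With a change of at least 2-fold, 11 members passed in the overexpressor and 12 in the knockout, beside 14% and 18.3% of all genes. The filter takes a gene that is high in 1 group only, and such a gene had to differ, so these counts describe and support nothing further. The 10 neuron markers summed to 136 to 145 CPM in control, 720.5 to 767 CPM in overexpressor, with 128 to 137 CPM in knockout myoblasts, mostly Stmn2 and Tubb3, while Snap25, Rbfox3 and Elavl4 were at 0.028 CPM or less as group means in all 6 groups. The 5 fibroblast markers, mostly Col1a1, summed to 788 to 839, 42 to 45.8 and 388 to 613 CPM in the same order. The part of these differences, and of the myotube markers in knockout myoblasts, in the member results was not tested.

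In myotubes more members were lower than higher in both clones. The overexpressor had 5 higher and 13 lower of 37, beside 26.2% and 30.9% of all genes (57.1% either way), and the knockout had 4 higher and 16 lower, beside 31% and 37% (68% either way). The 4 that were higher in the knockout were Pcdhb12, Pcdhb13, Pcdhb15 and Pcdhga1, and the 5 that were higher in the overexpressor were Pcdhb12, Pcdhb13, Pcdhb15, Pcdhb16 and Pcdhga7. Among gamma A and B genes, 5 were lower in the overexpressor and 7 in the knockout, and Pcdhga7 and Pcdhga1 were the 1 higher in each. The tested members had a median of -0.21 (overexpressor) and -0.56 (knockout) on the log2 scale, beside -0.04 and -0.07 for all genes. With at least 2-fold change, 7 members passed in the overexpressor and 12 in the knockout, beside 23.7% and 30.7% of all genes. Scaling by DESeq2's size factors moved the median of all genes by 0.11 for the overexpressor and 0.13 for the knockout on the log2 scale, and gave 5 higher and 10 lower members in the overexpressor and 5 and 15 in the knockout. Myotube markers summed to 20990 to 23120 CPM in overexpressor and 29920 to 35720 CPM in knockout myotubes, and fibroblast markers to 319 to 495 and 1366 to 1599 CPM, against 5776 to 6835 CPM in control myotubes. Their part in the result was not tested.

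The clones were also compared with each other, which leaves the control out. In myoblasts 9 members were higher and 12 lower in the overexpressor than in the knockout, beside 25.7% and 26.9% of all genes (52.6% either way). All 9 beta genes that passed were lower in the overexpressor (edgeR called 0 higher, as did DESeq2, and 0 had an unadjusted p under 0.05 in that direction), led by Pcdhb18 (log2 fold change -1.23, adjusted p = 0.000285), Pcdhb19 (log2 fold change -1.21, adjusted p = 1.63e-05) and Pcdhb17 (log2 fold change -1.04, adjusted p = 8.12e-06). Of the gamma A and B genes, 8 were higher, with the largest fold changes for Pcdhga7, Pcdhgb7 (log2 fold change 2.03, adjusted p = 0.00324) and Pcdhga4, and 2 were lower, Pcdhga1 (log2 fold change -2.27, SE 0.13, adjusted p = 4.07e-11) and Pcdhga6. In myotubes 6 members were higher and 5 lower, beside 30.6% and 29.1% of all genes (59.7% either way). At least 2-fold were 11 members in myoblasts and 4 in myotubes, beside 18.9% and 18.5% of all genes. The myotube calls included Pcdhb16 (log2 fold change 1.15, adjusted p = 0.000275), Pcdhb20 (log2 fold change 0.78, adjusted p = 0.000347), Pcdhga1 (log2 fold change -1.01, adjusted p = 1.54e-06) and Pcdhb12 (log2 fold change -0.82, adjusted p = 0.00151).

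Differences seen in myoblasts held in part in myotubes, a comparison whose 2 sides share no library. Against the control, 10 members passed with the same sign at both stages in the overexpressor, which is 47.6% of its myoblast and 55.6% of its myotube calls, beside 56.5% and 39.9% for all genes. These were Pcdhb12, Pcdhb13, Pcdhb15, Pcdhb16 and Pcdhga7 as higher and Pcdhb18, Pcdhb20, Pcdhb22, Pcdhga6 and Pcdhga9 as lower. In the knockout 10 members did so as well, 52.6% of its myoblast and 50% of its myotube calls, beside 61.4% and 47.9% for all genes. They were Pcdhb12, Pcdhb13, Pcdhb15 and Pcdhga1 as higher and Pcdhb2, Pcdhb3, Pcdhga8, Pcdhga9, Pcdhgb6 and Pcdhgc3 as lower. Pcdhgb1 passed with opposite signs at the 2 stages in both clones, Pcdhga1 in the overexpressor and Pcdhga2 in the knockout.

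Members rose and fell on differentiation in each line. In the control, 13 of 37 tested members rose and 7 fell from myoblasts to myotubes, beside 33.9% and 28.8% of all genes (62.8% either way). The rises were led by Pcdhga1 (log2 fold change 2.41, SE 0.14, adjusted p = 2.40e-11), Pcdhgb1 (log2 fold change 2.00, SE 0.20, adjusted p = 7.93e-08), Pcdhb13 (log2 fold change 1.55, adjusted p = 0.000316) and Pcdhga2 (log2 fold change 1.29, adjusted p = 6.25e-05), and Pcdhb20 (log2 fold change 1.00, adjusted p = 1.80e-05) became the leading beta gene. In the overexpressor 9 members rose and 10 fell, beside 29.8% and 33% (62.8% either way). There, 8 beta genes rose, among them Pcdhb20 (log2 fold change 1.09, adjusted p = 7.96e-06), and 9 gamma A and B genes fell, among them Pcdhga5 (log2 fold change -1.78, adjusted p = 0.00656), Pcdhga12 (log2 fold change -1.67, adjusted p = 0.00391) and Pcdhgb2 (log2 fold change -1.10, adjusted p = 0.000752). No beta gene fell by edgeR, 0 had an unadjusted p under 0.05 in that direction, and DESeq2 called none. The 8 rises became 2 without overexpressor myoblast A. In the knockout 1 member, Pcdhb9, rose and 14 fell, beside 29.8% and 35.6% (65.4% either way), with 7 beta genes among those that fell (6, and 2 that rose, with DESeq2's size factors), such as Pcdhb16 (log2 fold change -0.99, adjusted p = 0.000885) and Pcdhb21 (log2 fold change -0.90, adjusted p = 0.000516).

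With at least 2-fold change, 13, 10 and 4 members passed in control, overexpressor and knockout, beside 28.7%, 28.5% and 26.8% of all genes. The split of rises and falls depended on the scaling. With library totals in place of TMM, 10 members rose and 10 fell in the control, and the median of all genes shifted by -0.24. With DESeq2's size factors, 11 rose and 8 fell in the overexpressor. In the knockout the falls outnumbered the rises under each scaling, with 2 rises and 11 falls by DESeq2's size factors and 1 and 19 by library totals, where the median of all genes shifted by 0.11 and -0.17.

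Pcdhga11, Pcdhgb6, Pcdhga9 and, as given above, Pcdhgc3 fell in every line. In myoblasts, Pcdhga11 was at 0.300, 0.346 and 0.356 CPM in the control, 0.419, 0.582 and 0.139 in the overexpressor, with 0.151, 0.109 and 0.160 in the knockout. In myotubes, Pcdhga11 was at 0, 0.023 and 0.036 CPM in the control, 0.074, 0.038 and 0.028 in the overexpressor, with 0.017, 0.017 and 0 in the knockout, and no myotube library exceeded 0.074 CPM. The fitted log2 fold changes were -3.93 (SE 0.70, adjusted p = 8.24e-05) in the control, -3.00 (SE 0.55, adjusted p = 0.000105) in the overexpressor and, for the knockout, -3.31 (SE 0.85, adjusted p = 0.00235). Control and knockout myotubes were at the floor of 3 counts or fewer, so the size of these falls is uncertain. The myoblast means were 5.58 and 2.56 times the CPM of 3 counts in those myotubes, without allowance for the spread between libraries. The difference between lines in myoblasts (log2 fold change -1.24, adjusted p = 0.042 for the knockout) was lost under many settings, DESeq2 among them (-1.28, adjusted p = 0.099). Pcdhgb6, whose values are given above, fell by 1.52 in the control, by 2.08 in the overexpressor and by 1.5 in the knockout on the log2 scale, each without overlap. Pcdhga9 fell by 0.77, 0.83 and 1.52, the last of these moving to -2.28 without knockout myotube A. Pcdhgb7 fell in the control (log2 fold change -1.87, adjusted p = 0.00246) and in the overexpressor (log2 fold change -2.29, adjusted p = 0.000758). In the overexpressor, the falls of Pcdhga4 and Pcdhga5 and the rise of Pcdhb10 (-1.0, -1.78 and 1.16) were each lost without 1 or more libraries, overexpressor myoblast A for Pcdhga5 (-1.41) and Pcdhb10 (0.98) and overexpressor myoblast B for Pcdhga4 (-0.62). Leaving out overexpressor myoblast A brought the total of 19 changed members in that line to 11.

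The change on differentiation was smaller, or opposite, in the clones for several members that rose in the control. Tested as the clone's log2 change minus the control's, 7 members differed in the overexpressor and 15 in the knockout, all with a negative sign, beside 22.3% and 29.9% of all genes with a negative and 16.6% and 20.2% with a positive sign (39% and 50.1% either way). Of these, 5 and 10 differed by at least 2-fold, beside 16.8% and 23.5% of all genes. With a positive sign edgeR called none; at an unadjusted p under 0.05 there were 1 and 0, and DESeq2 called 1 and 0. Library totals in place of TMM gave 2 positive and 7 negative members in the overexpressor, where the median of all genes moved by 0.19. In the knockout that median moved by 0.15 with DESeq2's size factors, which left 12 members, all negative. Pcdhgb1 differed by -2.98 (SE 0.29, adjusted p = 1.76e-07) in the overexpressor and -2.23 (SE 0.28, adjusted p = 4.27e-06) in the knockout, and Pcdhga1 by -1.50 (SE 0.18, adjusted p = 2.98e-06) and -2.77 (SE 0.18, adjusted p = 8.12e-10). Pcdhga2 (differences -1.48 with adjusted p = 0.000572 and -1.80 with adjusted p = 0.000117), Pcdhga3 (differences -1.57 with adjusted p = 0.00324 and -1.66 with adjusted p = 0.00364) and Pcdhb13 (differences -1.40 with adjusted p = 0.00916 and -1.90 with adjusted p = 0.000609) also passed in both clones, which share the control libraries. In the knockout the beta genes Pcdhb11, Pcdhb14, Pcdhb16, Pcdhb19 and Pcdhb20 passed with differences of -1.53, -1.37, -1.12, -1.16 and -1.27. Knockout myoblasts already held the raised myotube markers given above, and the part of this in the differences was not tested.

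**Figure D5:**
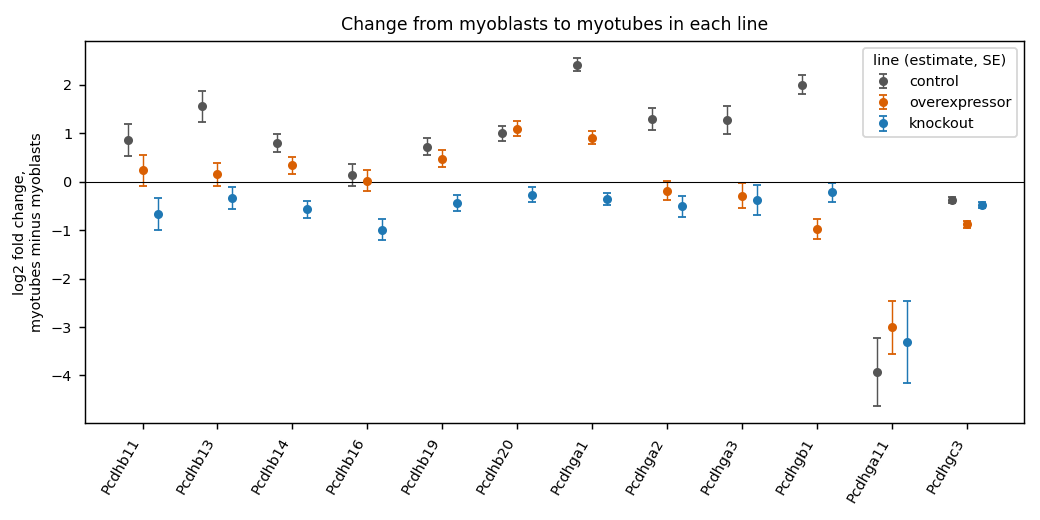
Points are the fitted log2 fold change from myoblasts to myotubes with its SE for 12 members in each line. Pcdhga1, Pcdhgb1, Pcdhb13 and Pcdhga2 rise in the control and lie lower in both clones, Pcdhb20 rises in the control and the overexpressor, and Pcdhga11 falls in all 3 lines.

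Genes around the clusters were examined for changes of the same kind. Of 34 protein-coding genes between the clusters or within 500 kb of them, 27 were tested, and in myoblasts 4 were higher and 15 lower in the overexpressor and 0 higher and 19 lower in the knockout than in the control. Of all genes tested, 20.7% were higher and 19.7% lower in the overexpressor, and 26.4% and 26.6% in the knockout. The median log2 fold change of the neighbours tested was -0.33 and -0.35, beside -0.17 and -0.04 for the members and 0.02 for all genes in each. No neighbour was higher in the knockout by edgeR or DESeq2, and 0 had an unadjusted p under 0.05 in that direction. Taf7, a general transcription factor gene between the beta and gamma clusters (37640491 to 37644204, minus strand), was in myoblasts at 4.29, 2.38 and 2.16 CPM in the control, 1.56, 2.57 and 1.66 in the overexpressor, with 4.02, 5.77 and 3.38 in the knockout, and its differences from the control did not pass (log2 fold changes -0.62 with adjusted p = 0.181 in the overexpressor and 0.57 with adjusted p = 0.16 in the knockout). Diaph1, a formin that nucleates actin filaments and lies 1728 bases past the gamma cluster on the minus strand, was in myoblasts at 119.8, 125 and 125 CPM in the control, 162, 157 and 154 in the overexpressor, with 61.5, 65.4 and 64.1 in the knockout. It was higher in the overexpressor (log2 fold change 0.35, adjusted p = 4.59e-05) and lower in the knockout (log2 fold change -0.95, adjusted p = 1.15e-10), with no overlap between the lines. In myotubes, Diaph1 was at 133, 127 and 130.4 CPM in the control, 108, 103 and 99.4 in the overexpressor, with 70.4, 79 and 78.4 in the knockout, and there both clones were lower than the control without overlap (log2 fold changes -0.33 with adjusted p = 5.75e-05 and -0.77 with adjusted p = 1.12e-09). In myotubes 3 neighbours were higher and 19 lower in the overexpressor, beside 26.2% and 30.9% of all genes, and 1 higher and 17 lower in the knockout, beside 31% and 37%.

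Protocadherins outside the clusters did not follow one direction. Of 11 listed, 5 were tested. Pcdh1, which lies within 500 kb of the gamma cluster, was in myoblasts at 40.4, 39.2 and 41.9 CPM in the control, 142, 129 and 146 in the overexpressor, with 31, 32.2 and 31.3 in the knockout. In myotubes, Pcdh1 was at 39.7, 43.5 and 39.4 CPM in the control, 124, 124 and 103 in the overexpressor, with 27.3, 29.9 and 34.3 in the knockout. It was higher in the overexpressor at both stages (log2 fold changes 1.78 with adjusted p = 1.22e-11 and 1.52 with adjusted p = 4.53e-11). In myoblasts, Pcdh18 was at 45.7, 45.1 and 49.6 CPM in the control, 11.6, 14.4 and 11.6 in the overexpressor, with 25.7, 25.9 and 25.4 in the knockout, and it was lower in both clones (log2 fold changes -1.90 with adjusted p = 2.78e-10 and -0.87 with adjusted p = 3.33e-06). In all, 2 of the 5 were higher and 1 lower in overexpressor myoblasts, and 1 was higher and 2 lower in knockout myoblasts, with the same counts in the myotubes of each clone. That is 60% of the 5 in each comparison. Among all genes tested, 40.4% (overexpressor) and 53% (knockout) passed either way in myoblasts, and 57.1% and 68% in myotubes.

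Most of the listed cohesin genes were lower in knockout myotubes than in control myotubes. Of the 11 cohesin and CTCF genes, edgeR called none in overexpressor myoblasts (1 higher and 1 lower had an unadjusted p under 0.05, DESeq2 called none, and 2 passed without overexpressor B), and 1, Rad21 of the cohesin ring, was lower in knockout myoblasts (log2 fold change -0.57, adjusted p = 0.000226). In knockout myotubes 9 were lower and 1 higher, with a median of -1.24, beside 37% lower, 31% higher and a median of -0.07 over all genes. Among the lower were Stag2 (log2 fold change -1.80, adjusted p = 0.0018), Pds5a (log2 fold change -1.67, adjusted p = 3.66e-05) and the cohesin loader Nipbl (log2 fold change -1.65, adjusted p = 0.000419), while Ctcf was at 58.3, 57.3 and 64.2 CPM in control and 61.9, 57.5 and 49 in knockout myotubes (log2 fold change -0.10, adjusted p = 0.349). In overexpressor myotubes 1 was higher and 1 lower (2 and 1 with DESeq2's size factors), and the total went to 8 without overexpressor C and to 0 without overexpressor B. Of the 14 DNA methylation and silencing genes, 2 were higher and 3 lower in overexpressor myoblasts (3 and 2 by DESeq2) and 0 and 6 in knockout myoblasts. In myotubes they were 3 and 5 in the overexpressor (5 and 4 with DESeq2's size factors) and 4 and 7 in the knockout. Over all genes, 40.4% and 53% passed either way in overexpressor and knockout myoblasts and 57.1% and 68% in the myotubes, so 11 of 14 in knockout myotubes is near the background. Uhrf1, which brings the maintenance methyltransferase Dnmt1 to newly copied DNA, was higher in the myotubes of both clones (log2 fold changes 2.20 with adjusted p = 2.47e-10 and 2.56 with adjusted p = 3.31e-11). Smchd1, a repressor of clustered protocadherin genes in other mouse cells, was at 58.7, 43.7 and 61.5 CPM in control and 27.1, 18 and 14.8 in knockout myotubes (log2 fold change -1.45, SE 0.25, adjusted p = 0.00012), without overlap. Of 11 cytoplasmic and proteolytic partners, 4 were higher and 1 lower in overexpressor myoblasts (3 and 2 with library totals) and 1 and 4 in knockout myoblasts. In myotubes they were 2 and 5 in the overexpressor and 1 and 7 in the knockout (3 and 3, and 2 and 6, with DESeq2's size factors), where 8 of 11 is near the 68% of all genes. The kinase gene Fyn of that list was higher in the myoblasts of both clones (log2 fold changes 1.82 with adjusted p = 1.01e-13 and 1.90 with adjusted p = 3.87e-14), and Ptk2b was lower in the knockout at both stages (log2 fold changes -2.43 with adjusted p = 5.93e-13 and -1.56 with adjusted p = 8.85e-11).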

How the data were processed

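Raw gene counts were deposited by the authors, made with STAR 2.7.9a and featureCounts of Subread 2.0.3 on mm10, per the submitters' processing notes, which also name FastQC 0.11.7 and DESeq2 1.32.0. Aligner options, annotation release and strand use are not given in the sources used here. A deposited variance-stabilised table was not used here. Gene IDs were matched to GENCODE M21 (55190 of 55450, the other 260 holding 0.00589% of counts). Counts of all 18 libraries were fitted in R 4.3.3 with edgeR 4.0.16 (TMM factors 0.895 to 1.08, filterByExpr, which kept 17912 genes, robust quasi-likelihood fit of 6 groups, 12 residual degrees of freedom) and limma 3.58.1. Contrasts between groups were tested with Benjamini-Hochberg adjustment over all genes kept, at a threshold of 0.05. The fit was checked on simulated counts for overexpressor against control myoblasts only. The simulation gave every gene the same dispersion and planted changes only in genes of higher counts. It does not cover the other contrasts or members with few counts.

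Alternatives were DESeq2 1.42.0, its size factors, library totals, no filter, a replicate block, a 2-fold threshold, other expression cutoffs and leaving out each library. Members and lists were chosen with earlier results of these data known. Values per library are given for beta genes expressed in some group, for the 4 alpha and 6 gamma genes of highest level per kb, and for members called with at least a 2-fold change and no overlap. Replicates of a group differed by more than counting noise (chi-square per gene 4.72 or more). The value was highest for overexpressor myotube C, at 118 against A and 112 against B, while A and B gave 22.8. Knockout myotubes A and C gave 55, and overexpressor myoblast B gave 37.3 against A and 33 against C. Same-lettered libraries of different groups did not deviate together (correlations from -0.36 to 0.26, 0 of 9 comparisons with every pair over 0.1), so the letters do not pair the samples. No sequence is shown.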

Additional observations from a re-analysis of the deposited data

Results flagged for a closer look

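The change from myoblasts to myotubes was tested with edgeR for a difference from the control's. Of the 37 members tested, 5 in the overexpressor and 10 in the knockout passed with at least a 2-fold difference. Of all 17912 genes tested, 16.8% and 23.5% did so, so these totals do not set the members apart. Each value is the clone's log2 fold change minus the control's, and all are negative. In the overexpressor they were -1.40 for Pcdhb13 (adjusted p = 0.00916), -1.50 for Pcdhga1 (adjusted p = 2.98e-06), -1.48 for Pcdhga2 (adjusted p = 0.000572), -1.57 for Pcdhga3 (adjusted p = 0.00324) and -2.98 for Pcdhgb1 (adjusted p = 1.76e-07). In the knockout the gamma genes stood at -2.77 for Pcdhga1 (adjusted p = 8.12e-10), -1.80 for Pcdhga2 (adjusted p = 0.000117), -1.66 for Pcdhga3 (adjusted p = 0.00364) and -2.23 for Pcdhgb1 (adjusted p = 4.27e-06). The beta genes of the knockout stood at -1.53 for Pcdhb11 (adjusted p = 0.0119), -1.90 for Pcdhb13 (adjusted p = 0.000609), -1.37 for Pcdhb14 (adjusted p = 0.000195), -1.12 for Pcdhb16 (adjusted p = 0.00672), -1.16 for Pcdhb19 (adjusted p = 0.000847) and -1.27 for Pcdhb20 (adjusted p = 0.00013). Both clones are set against the same control libraries.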

How the results depend on the processing

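Recomputed were only the 94 log2 fold changes that passed with at least a 2-fold change and no overlap (overlap was not judged for differences in response). Of their 2162 recomputations under the alternatives, 2113 kept their direction and their side of the threshold. Another 49 lost the call (12 of the values at least once) and 0 reversed. Values named above with a smaller change or with overlap are not in this set, so these numbers do not describe them. The totals of members called moved by more than 1.5 times when a 2-fold change was also required, which left 11, 12 and 11 in myoblasts (overexpressor against control, knockout against control, overexpressor against knockout), 7, 12 and 4 in myotubes, and 13, 10 and 4 for differentiation in control, overexpressor and knockout, fewer by construction. For differentiation in the overexpressor, leaving out 1 library gave 11 (without myoblast A) to 19 calls, and the cause was not tested. Expressed members numbered 32 at 0.2 CPM in control myoblasts and 16 at 1 CPM in control myotubes. With a replicate block the totals were 21, 18 and 21 in myoblasts, 18, 19 and 10 in myotubes, 20, 17 and 14 for differentiation and 7 and 14 for the differences in response. The block ended 1 of the 94 recomputed calls, Pcdhga11 in knockout myoblasts (-1.23, adjusted p = 0.0577). Depth limits the alpha genes and the low members of both other clusters, many of which rest on under 30 counts a library. Genotype, clone and derivation from 1 cell cannot be told apart.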
